A study of Mus musculus with 24 samples.

Results

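The change of the normal mouse ovary between postnatal day 1 (PND1) and postnatal day 4 (PND4) was followed in control animals of a study of SF-1 (steroidogenic factor 1), a nuclear receptor whose gene is Nr5a1. All libraries labelled as control at either age were taken, 4 at PND1 and 4 at PND4, which makes 8 of the 24 libraries of the series. The controls were littermates of the knockout mice and carried Nr5a1 f/f with Amhr2-cre +/+, so both alleles of Nr5a1 were floxed but no cre transgene was present. The SF-1 conditional knockout mice (cKO) carried Nr5a1 f/f with Amhr2-cre Tg/+, in which cre is driven by the locus of the receptor for anti-Müllerian hormone, and their 4 libraries at each of these ages serve below as a comparison, as do 4 control libraries from embryonic day 17.5 (ED17.5). The floxed alleles are thus common to every group. Per the labels, each library holds poly(A) RNA from whole ovaries pooled within an age and genotype, with 3 to 5 animals per pool after birth and 5 before it, and the strain is not given in the sources used here. P-values measure the spread between these pools, for which no link to litters is given.

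In the mouse, oocytes enter meiosis before birth and lie in clusters called cysts, which break apart around birth. Each surviving oocyte is then enclosed by flat pregranulosa cells as a primordial follicle, the resting store from which all later follicles come, while the first follicles deep in the ovary start to grow at once. A growing oocyte lays down its zona pellucida and stores proteins and messages for the embryo, its granulosa cells begin to divide and make anti-Müllerian hormone and inhibin, and stroma and theca gather outside the follicle. Whole ovaries hold all of these cells together, so a lower level of a transcript can mean fewer cells of a type or less RNA per cell, and these cannot be told apart here.

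Depth was even over the libraries, with total counts between 11361365 and 13571755. Levels are given as CPM, read counts per 1000000 counts of the scaled library, in the order replicates 1, 2, 3 and 4 at PND1 and replicates 2, 3, 4 and 5 at PND4, the numbers the titles carry. Fits that add the title number, or the set of 6 consecutive library numbers, as a block are quoted where they move a count by over 1.5 times or change the call of a named gene. In the fit with the title number, PND1 replicate 1 and PND4 replicate 5 share no number with the other age and so add nothing to the fold change. A chi-square comparison of replicates gave 3.81 to 20 per degree of freedom over the 12 pairs, above counting noise, so no library was a copy of another. The labelled tissue was checked by its markers: Foxl2 (granulosa lineage) and Ddx4 (germ cells) lay at 246–277 and 127–181 CPM at PND1 and at 185–251 and 132–167 CPM at PND4. Some libraries stood apart. PND1 replicate 1 held more germ cell RNA, with a summed level of the genes marking germ cells of all stages of 2032 CPM against 1351 to 1447 in the other PND1 libraries. PND4 replicate 5 held less of the theca and stroma markers, 5373 CPM in sum against 8345 to 9443. PND4 replicate 3 held RNA of genes known from the oviduct, with Wnt7a at 32.9 CPM against 0.440 to 1.82 in the other PND4 libraries. Red blood cell genes were high in PND1 replicates 2 and 3, where Slc4a1 stood at 283 and 116 CPM against 15.9 and 1.67 in the other PND1 libraries. The summed level of the red blood cell genes was 1843 CPM in PND1 replicate 2, 1124 CPM in PND4 replicate 2 and 921 CPM in PND1 replicate 3, against 228 to 333 in the other libraries.

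Between PND1 and PND4, 2590 genes rose (16.4% of the 15834 genes tested) and 2417 fell (15.3%) in edgeR's quasi-likelihood test at an adjusted p under 0.05, the threshold for every call below, together 31.6%. The rises were larger than the falls. At least a 2-fold change was found for 744 called genes that rose (4.70% of the genes tested) and for 279 that fell (1.76%), together 6.46%. The median log2 fold change over all genes tested was -0.005. The shares over all genes tested are the background for every count of list members below. The 2 groups of libraries did not overlap for 5050 genes (31.9%), and this held for 4296 of the 5007 called genes. Fold changes are log2 of PND4 over PND1, ± SE, with 4 libraries per group throughout. The plot of change against level places the oocyte growth genes above and the meiotic genes below the cloud of all genes.

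**Figure D1:**
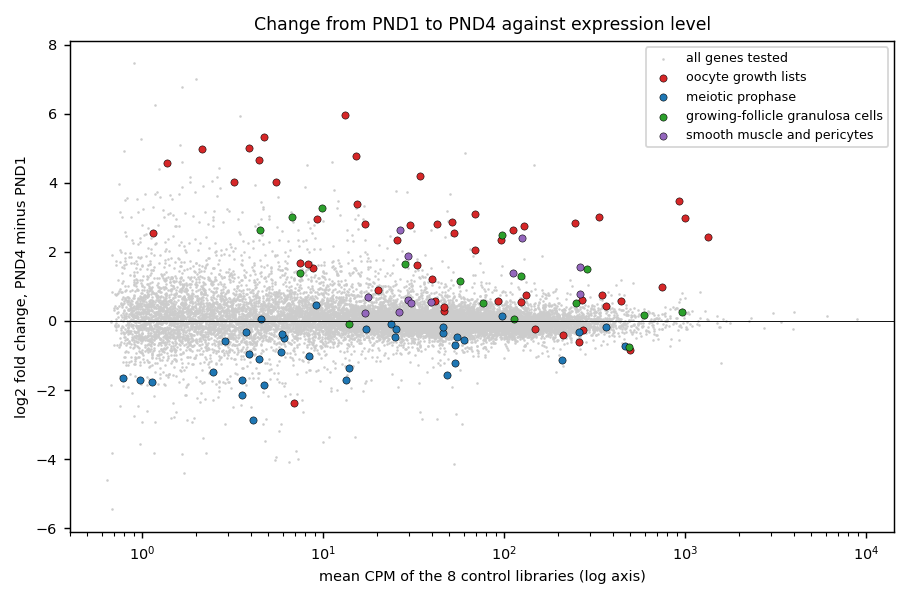
Each point is a gene tested in the 8 control libraries, at its mean level in CPM (log axis) and its log2 fold change from PND1 to PND4. Coloured points are members of oocyte growth, meiotic prophase, granulosa cell and smooth muscle lists, and oocyte growth genes reach a log2 fold change of 5.96 while meiotic genes lie mostly below 0.

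Most of the genes with the largest rises are known from oocytes. The ranking took named genes that were called, had a mean of at least 1 CPM and showed no overlap of the groups. The 15 largest rises included Obox5, Oosp1, Nlrp2, Nlrp9a, Zar1l, Elobl, Nlrp4a, Fbxw20, Nlrp9b, Khdc1c, Oosp3, Khdc1b, Evx1 and Zar1. Oosp1, which encodes a secreted protein of the oocyte, stood at 0.333, 0.599, 0.520 and 0.167 CPM at PND1 and at 27.2, 23.4, 30.2 and 23.2 CPM at PND4. Its log2 fold change was 5.96 ± 0.22 (edgeR adjusted p = 9.49e-10). No overlap of the groups was a condition of the ranking, so it is no finding for these rises. Oosp1 entered the test through its PND4 level, as it lay under the filter on low counts at PND1. Khdc1b rose from 15.6, 14.2, 10.3 and 9.43 CPM to 288, 272, 304 and 258 CPM, a log2 fold change of 4.50 ± 0.14 (edgeR adjusted p = 4.38e-10). Elobl rose from 3.42–4.91 CPM to 104–129 CPM (4.87 ± 0.12, edgeR adjusted p = 4.44e-11). For Obox5, an oocyte homeobox gene on chr7:15750131-15759800 (GRCm38), a single count was found over the 4 PND1 libraries against 192 at PND4. The ratio of the pooled levels was 194, with a 95% interval for counting error of 34.5 to 7711. Its relative Obox1 had 0 counts at PND1 and 87 at PND4, at least 29.3-fold higher when a floor of 3 counts over the PND1 group is used.

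Many of the genes with the largest falls are known from germ cells in meiosis or from testis. The 15 largest named falls by the same criteria were Sp9, Taf7l, Ctag2l1, Tex101, Adad1, Ly6k, Nxf2, Oprk1, Scml1, Tex13c2, Nol4, Syce3, Tmc2, Prss50 and Dmrtc2. Taf7l, the X-linked relative of the general transcription factor Taf7 that germ cells use, stood at 129.6, 90.5, 83.9 and 96.2 CPM at PND1 and 4.97, 4.15, 3.52 and 10.0 CPM at PND4. The highest PND4 value was that of replicate 5 and lay far under the lowest PND1 value, and the log2 fold change was -4.15 ± 0.30 (edgeR adjusted p = 2.53e-05). Tex101, a surface protein of germ cells, went from 15.6, 12.6, 13.2 and 13.7 CPM to 0.414, 1.04, 0.600 and 1.32 CPM (-4.01 ± 0.24, edgeR adjusted p = 1.21e-07). Nxf2, an X-linked germ cell factor related to mRNA export proteins, went from 22.6–30.5 CPM to 2.15–3.96 CPM (-3.35 ± 0.18, edgeR adjusted p = 3.62e-08). No overlap of the groups was a condition of this ranking, so it is no finding for these 3 genes. The calls for all 15 rises and all 15 falls were kept in each of the 21 alternative settings run.

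The zona pellucida is the glycoprotein coat of the oocyte, and all 3 of its genes rose, by 5.06-fold to 8.04-fold. Zp2, which encodes the zona protein that sperm bind, stood at 258, 227, 223 and 201 CPM at PND1 and at 1746, 1787, 1848 and 1769 CPM at PND4. The PND4 values lay within a narrow band and the log2 fold change was 2.97 ± 0.082 (edgeR adjusted p = 1.15e-10). Zp3 stood at 86.3, 73.6, 81.1 and 56.3 CPM and then at 654, 579.9, 616 and 541 CPM (3.01 ± 0.12, edgeR adjusted p = 4.32e-09), and Zp1, whose product crosslinks the filaments, at 34.0, 36.9, 29.1 and 27.2 CPM and then at 187, 151, 172 and 133 CPM (2.34 ± 0.12, edgeR adjusted p = 6.38e-08). Per kilobase of exon, the PND4 levels were 656 CPM for Zp2, 452 CPM for Zp3 and 81.2 CPM for Zp1, and the order was the same at PND1 with 83.5, 56.2 and 16.1 CPM. Zp2 lies at chr7:120126772-120145291, Zp3 at chr5:135980099-135988624 and Zp1 at chr19:10914287-10920632 in GRCm38.

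Promoter sequence of genes that rose is shown for Zp3 and for the 3 other oocyte genes with the largest rises whose window lies almost wholly before the annotated exons, as these windows are where the factors FIGLA, known to bind E-boxes in zona promoters, and NOBOX, a homeobox protein of oocytes, would be looked for. Each is the 250 bases before the RefSeq start (GRCm38.p6), with matches on either strand to the E-box CANNTG, the NOBOX element TAATTG or TAATTA and the TATA motif TATAA in capitals. The windows are chr5:135979855-135980104 on the plus strand for Zp3, chr7:26534773-26535022 on the plus strand for Nlrp9a, chr5:150518160-150518409 on the minus strand for Zar1l and chr7:26434863-26435112 on the plus strand for Nlrp4a.
Zp3: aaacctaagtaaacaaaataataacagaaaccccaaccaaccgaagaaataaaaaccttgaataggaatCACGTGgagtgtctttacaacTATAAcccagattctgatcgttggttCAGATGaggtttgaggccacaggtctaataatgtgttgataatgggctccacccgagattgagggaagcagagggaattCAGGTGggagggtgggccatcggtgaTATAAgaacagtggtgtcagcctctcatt
Nlrp9a: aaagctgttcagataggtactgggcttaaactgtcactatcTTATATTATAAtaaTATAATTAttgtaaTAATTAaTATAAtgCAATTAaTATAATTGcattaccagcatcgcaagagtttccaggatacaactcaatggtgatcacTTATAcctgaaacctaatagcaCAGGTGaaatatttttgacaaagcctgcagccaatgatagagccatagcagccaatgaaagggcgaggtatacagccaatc
Zar1l: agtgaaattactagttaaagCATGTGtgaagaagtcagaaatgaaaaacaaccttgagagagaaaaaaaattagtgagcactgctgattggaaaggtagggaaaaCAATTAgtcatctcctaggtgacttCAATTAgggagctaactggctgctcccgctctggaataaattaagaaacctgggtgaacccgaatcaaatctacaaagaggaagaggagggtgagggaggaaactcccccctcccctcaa
Nlrp4a: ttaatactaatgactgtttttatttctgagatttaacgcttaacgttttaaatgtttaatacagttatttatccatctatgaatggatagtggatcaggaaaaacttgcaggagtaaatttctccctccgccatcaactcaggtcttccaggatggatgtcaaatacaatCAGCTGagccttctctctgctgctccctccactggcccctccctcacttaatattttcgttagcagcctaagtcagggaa
In the Zp3 window, E-box matches began 181, 134 and 55 bases before the start and TATAA matches 160 and 29 bases before it. The Zar1l window held a TAATTG match on the strand opposite to the one printed at 145 and at 120 bases, while the Nlrp9a window held TAATTG or TAATTA matches within a run rich in A and T, where some motifs overlap. Of the 49 members of the 6 oocyte lists that rose, 37 had a promoter in the RefSeq table, with 45 windows in all. CANNTG was found in 84.4% of these windows and in 66.2% of all 32851 windows, TAATTG or TAATTA in 15.6% and 11.3%, and TATAA in 26.7% and 22.8%. These are matches of letters and describe no binding.

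Oocyte ligands and surface proteins rose with 1 exception. Of 11 listed genes 10 passed the filter on low counts, 9 rose and 1 fell, with a median log2 fold change of 2.81. Gdf9, a growth factor by which the oocyte drives granulosa cells, stood at 38.5, 35.7, 32.9 and 26.6 CPM at PND1 and 241, 209.6, 249.5 and 196 CPM at PND4, and its log2 fold change was 2.75 ± 0.11 (edgeR adjusted p = 5.68e-09). Its partner Bmp15 rose from 1.67–2.75 CPM to 11.1–23.3 CPM (2.94 ± 0.24, edgeR adjusted p = 2.21e-06). Astl, the protease ovastacin that cuts the zona after fertilization, rose from 10.7–13.3 CPM to 81.1–104 CPM (2.86 ± 0.10, edgeR adjusted p = 7.96e-10), and Izumo1r, the sperm receptor Juno, rose by 1.53 ± 0.16 (edgeR adjusted p = 1.74e-05). The exception was Kit, the receptor on the oocyte for the ligand Kitl of the granulosa cells. Kit stood at 752, 627, 580.5 and 572 CPM at PND1 and 368, 298, 339 and 419 CPM at PND4, so all PND4 libraries were lower, and its log2 fold change was -0.83 ± 0.11 (edgeR adjusted p = 1.38e-04). Members of a list that entered the test only because they were high at PND4 had to differ, and counts of oocyte genes that rose are read with that limit.

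Maternal-effect genes, whose products the egg passes to the embryo, rose for 13 of the 14 tested, with a median log2 fold change of 0.88, and without PND4 replicate 5 the count was 10. The largest level was that of Padi6, a part of the cytoplasmic lattices of the oocyte, which stood at 512, 423, 392 and 343 CPM at PND1 and 2511, 2145, 2279 and 2118 CPM at PND4 (2.44 ± 0.11, edgeR adjusted p = 1.22e-08). Ooep, a member of the subcortical maternal complex, rose by 2.83 ± 0.12 (edgeR adjusted p = 1.37e-08) and Npm2, a chaperone of oocyte chromatin, by 2.55 ± 0.16 (edgeR adjusted p = 4.10e-07). Both had PND4 libraries well above all PND1 libraries, with Ooep at 403–456 against 51.8–80.2 CPM. Tle6, of the same complex, rose less (0.76 ± 0.09, edgeR adjusted p = 3.94e-05), and Brwd1, a chromatin reader, was the only one to fall (-0.23 ± 0.059, edgeR adjusted p = 0.00932).

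Genes that store and silence messages in the oocyte, or hold its cell cycle, moved in both directions. Of 13 tested, 8 rose and 3 fell. Zar1, which binds stored maternal RNA, stood at 4.83, 2.65, 4.16 and 2.59 CPM at PND1 and 67.1, 62.1, 82.7 and 50.7 CPM at PND4 (4.2 ± 0.21, edgeR adjusted p = 9.26e-08). Btg4, an adaptor for the removal of poly(A) tails, rose by 2.79 ± 0.10 (edgeR adjusted p = 7.96e-10), and Wee2, the kinase that holds oocytes at prophase, by 1.61 ± 0.10 (edgeR adjusted p = 1.59e-07). Ybx2, an abundant RNA-binding protein of germ cells, fell from 286–383 CPM to 180.5–226 CPM (-0.61 ± 0.10, edgeR adjusted p = 6.05e-04). Cpeb1, which controls poly(A) tail length, fell by -0.42 ± 0.11 on this scale (edgeR adjusted p = 0.0104), and the cyclin Ccnb3 went from 9.59–14.8 CPM to 0.943–3.25 CPM (-2.39 ± 0.30, edgeR adjusted p = 1.02e-04).

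The oocyte members of the NLRP and OAS families rose together. All 15 tested of the 19 listed were called higher, with a median log2 fold change of 2.80. Nlrp14 stood at 192, 142, 139.5 and 139 CPM at PND1 and 1677, 1633, 1772 and 1712 CPM at PND4 and rose 11.1-fold (3.47 ± 0.11, edgeR adjusted p = 2.49e-10). Oas1d, which lacks the antiviral activity of its relatives, rose from 12.0–15.9 CPM to 113–139 CPM (3.11 ± 0.10, edgeR adjusted p = 4.38e-10). Nlrp5, also known as Mater, is the exception in stability. It stood at 737, 494, 422 and 332 CPM and then at 832, 839, 1115 and 1173 CPM (1.00 ± 0.25, edgeR adjusted p = 0.0202), and its call was lost without PND1 replicate 3, PND4 replicate 4 or PND4 replicate 5 and with the title number as a block (1.16 ± 0.29, edgeR adjusted p = 0.101). Members of such families share sequence, and how reads shared by near-identical copies were counted is not given in the sources used here, so single members are uncertain.

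Several clusters of related genes rose as a block, a pattern noted after the values were seen. On chromosome 9, 14 of 14 tested genes of the Fbxw family (F-box proteins with WD repeats) rose by 1.62 to 4.70 on the log2 scale, with a median of 3.31. Of the 8 Fbxw genes tested elsewhere in the genome, 0 rose and 4 fell. All 3 Khdc1 genes on chromosome 1 and all 3 Oosp genes on chromosome 19 rose. Over all genes tested 16.4% rose. Members near 0 at PND1, such as Fbxw20 (mean 0.324 CPM) and Oosp3 (0.10 CPM), entered the test through their PND4 level. Such members had to rise, and the counts for these clusters are read with that limit. The Oas1 cluster on chromosome 5 was divided: Oas1c, Oas1d, Oas1e and Oas1h rose, while Oas1a (-1.27) and Oas1b (-0.82), members of the interferon-induced branch, fell, the call for Oas1a being lost without PND1 replicate 1 or 3 or PND4 replicate 2 or 4.

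Transcription factors of the oocyte had no common direction: 4 of the 10 tested rose and 3 fell (5 with the title number as a block), with a median of -0.14. Nobox, needed for follicle growth past the primordial stage, stood at 128, 129, 113 and 111 CPM at PND1 and 216, 192, 192 and 241 CPM at PND4 and rose by 0.81 ± 0.084 (edgeR adjusted p = 1.47e-05). Tbpl2, the oocyte form of the TATA-binding protein, rose from 7.51–10.2 CPM to 25.0–29.9 CPM (1.74 ± 0.12, edgeR adjusted p = 3.56e-07). Figla, the factor that switches on the zona genes, stood at 88.8, 62.8, 61.8 and 60.0 CPM and then 61.3, 52.4, 58.0 and 69.3 CPM, and its log2 fold change of -0.18 ± 0.13 did not pass the test (edgeR adjusted p = 0.299). Sohlh1 was at -0.34 ± 0.20 (edgeR adjusted p = 0.222) and Sohlh2 at -0.093 ± 0.11 (edgeR adjusted p = 0.561). With the title number as a block both passed (-0.23 ± 0.06, edgeR adjusted p = 0.00826 and -0.21 ± 0.077, edgeR adjusted p = 0.0475), and Sohlh1 did so with the library set as a block (-0.32 ± 0.079, edgeR adjusted p = 0.00976). Figla values overlapped between the ages.

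**Figure D2:**
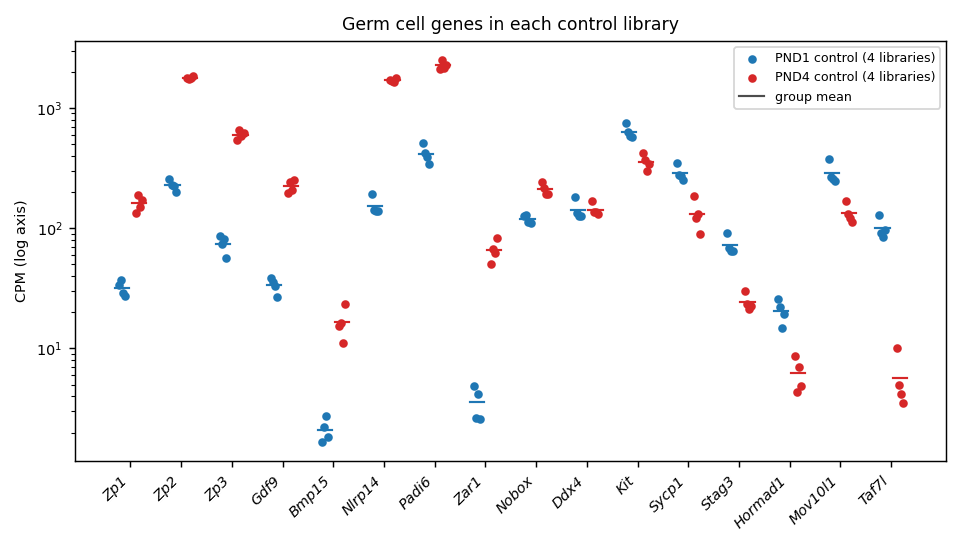
Points are the CPM (log axis) of 16 germ cell genes in each of the 4 PND1 and 4 PND4 control libraries, and bars are group means. Zona, Gdf9, Bmp15, Nlrp14, Padi6 and Zar1 values at PND4 lie above all PND1 values, Stag3, Hormad1, Sycp1, Mov10l1 and Taf7l values lie below them, and Ddx4 values overlap.

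Most genes of meiotic prophase were lower. Among 36 tested members 24 were lower, 1 was higher and 11 did not pass the test (median log2 fold change -0.72), and 23 to 26 fell whichever single library was left out. Stag3, a cohesin of meiotic chromosomes, stood at 90.9, 68.6, 64.2 and 65.2 CPM at PND1 and 23.5, 21.3, 22.7 and 29.9 CPM at PND4 (-1.57 ± 0.13, edgeR adjusted p = 3.32e-06). Hormad1, which marks unsynapsed axes, went from 25.6, 22.3, 14.9 and 19.4 CPM to 4.31, 6.97, 4.89 and 8.71 CPM (-1.72 ± 0.22, edgeR adjusted p = 1.24e-04). Neither gene's groups overlapped. The strand-break enzyme Spo11 (-1.47), Mei1 (-1.87), Meiob (-1.71) and the helicase gene Hfm1 (-1.37) also fell. Parts of the synaptonemal complex, the zipper between paired chromosomes, were divided: Sycp1 fell by -1.12 ± 0.21 (edgeR adjusted p = 0.00417) while Sycp3, at 248–385 CPM and then 192–282 CPM, was at -0.32 ± 0.16 (edgeR adjusted p = 0.153). Sycp3 passed with the title number as a block (-0.27 ± 0.054, edgeR adjusted p = 0.00136) and with the library set as a block (-0.31 ± 0.063, edgeR adjusted p = 0.00315). Msh4, a mismatch repair relative that marks crossovers, was the single member called higher (0.46 ± 0.16, edgeR adjusted p = 0.0443), a call lost without 6 of the 8 single libraries and with the title number as a block (0.33 ± 0.15, edgeR adjusted p = 0.100).

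Most markers of germ cells at every stage did not pass the test. Ddx4, the germ cell helicase Vasa, stood at 181, 134, 127 and 127 CPM at PND1 and 135, 135, 132 and 167 CPM at PND4, with a log2 fold change of 0.0025 ± 0.12 (edgeR adjusted p = 0.989). The groups overlapped, and the highest value at PND1 was that of replicate 1, the library with more germ cell RNA. Elavl2 (0.14 ± 0.092, edgeR adjusted p = 0.251), Mael (-0.11 ± 0.10, edgeR adjusted p = 0.420) and Uchl1 (-0.22 ± 0.18, edgeR adjusted p = 0.392) did not pass the test either, though Elavl2 and Mael passed with the title number as a block (0.14 ± 0.051, edgeR adjusted p = 0.0453 and -0.18 ± 0.059, edgeR adjusted p = 0.0278). Of the 8 tested, 3 fell: Tex101, Dnd1 and Dazl, the last an RNA-binding protein of germ cells that went from 184–229.5 CPM to 97.8–162 CPM (-0.70 ± 0.14, edgeR adjusted p = 0.00390). Dnd1 lost its call without 7 of the 8 single libraries and with the title number as a block (-0.36 ± 0.18, edgeR adjusted p = 0.120). The summed level of the list was 2032, 1447, 1368 and 1351 CPM at PND1 and 1396, 1206, 1248 and 1561 CPM at PND4, with overlap of the groups.

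The piRNA pathway, by which germ cells silence transposons with small RNAs, had 7 members lower and 2 higher of 16 tested. Mov10l1, the helicase that starts piRNA making, stood at 375, 266, 258 and 246 CPM at PND1 and 132, 122, 113 and 168 CPM at PND4 (-1.10 ± 0.16, edgeR adjusted p = 5.68e-04). Piwil2, an Argonaute protein that carries piRNAs, fell from 311–495 CPM to 159–239 CPM (-0.96 ± 0.18, edgeR adjusted p = 0.00342), and the Tudor proteins Tdrd1 (-0.81), Tdrd9 (-0.99) and Rnf17 (-1.02) fell with it. Gtsf1, at 0.56 ± 0.10 (edgeR adjusted p = 0.00120), and Tdrd12, at 0.78 ± 0.18 (edgeR adjusted p = 0.00511), were called higher. Among markers of oogonia and pluripotency 3 of 8 tested rose (5 without PND1 replicate 1 or without PND4 replicate 5) and 1 fell (0 without PND1 replicate 1, PND4 replicate 3 or PND4 replicate 4); Pou5f1, the pluripotency factor that growing oocytes express again, rose from 21.7–34.0 CPM to 52.2–65.1 CPM (1.17 ± 0.13, edgeR adjusted p = 3.94e-05), and Dppa5a by 2.49 ± 0.28 (edgeR adjusted p = 3.71e-04). In the DNA methylation machinery, Dnmt1, which copies methylation at replication, rose by 0.62 ± 0.12 (edgeR adjusted p = 0.00254) and its partner Uhrf1 by 0.61 ± 0.083 (edgeR adjusted p = 1.32e-04). Of that list 5 of 12 rose and 3 fell, while 1 fell without PND1 replicate 4 or PND4 replicate 2 and 0 without PND4 replicate 3.

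The X chromosome held many of the falls, which was also noted after the values were seen. Of the 599 X-linked genes tested, 42 fell at least 2-fold (7.01%), against 1.76% of all genes tested. X-linked genes were 3.78% of the genes tested and 15.1% of those that fell this far. Among X-linked genes with a given name rather than a clone or predicted-gene label, the largest falls were those of Fsip2l, Taf7l, Ctag2l1, Ctag2l2, Rhox13, Nxf2, Scml1, Tex13c2 and Tktl1, several of which are known from testis.

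Granulosa cells showed a rise in genes of growing follicles. Of the 16 tested of 19 listed, 11 rose and 1 fell, with a median log2 fold change of 1.22, and 11 to 13 rose whichever single library was left out. Amh, anti-Müllerian hormone, stood at 1.75, 2.05, 1.56 and 2.09 CPM at PND1 and 22.7, 15.7, 28.2 and 4.93 CPM at PND4 (3.26 ± 0.53, edgeR adjusted p = 0.00270). All PND4 libraries were above all PND1 libraries. Replicate 5, the PND4 library with the lower sum of theca and stroma markers, was the lowest of the 4. Inha, the alpha subunit of inhibin, went from 63.0, 66.7, 80.1 and 78.2 CPM to 195, 158, 219 and 135 CPM (1.29 ± 0.14, edgeR adjusted p = 7.73e-05), and Inhba, an activin subunit, rose by 1.39 ± 0.19 (edgeR adjusted p = 1.18e-04). Esr2, the estrogen receptor of granulosa cells, rose from 12.3–14.9 CPM to 34.0–48.4 CPM (1.65 ± 0.12, edgeR adjusted p = 6.05e-07). Serpine2, a protease inhibitor, rose by 1.5 ± 0.11 (edgeR adjusted p = 1.75e-06), the vesicular transporter Slc18a2 by 2.49 ± 0.16 (edgeR adjusted p = 1.33e-06) and Nr5a2, the close relative of SF-1, from 30.1–39.2 CPM to 64.0–90.8 CPM (1.15 ± 0.12, edgeR adjusted p = 1.18e-05). The exception was Kitl, the ligand of Kit, which stood at 538, 568, 650.4 and 689.6 CPM and then at 337, 332, 412 and 380.1 CPM (-0.74 ± 0.094, edgeR adjusted p = 7.12e-05). Ligand and receptor of this pair thus both fell, with no overlap of the groups for either.

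Pregranulosa genes changed less. Lower levels were called for 7 of 15 and higher levels for 0 (median -0.24), while 4 were lower without any 1 of PND1 replicates 3 and 4 and PND4 replicates 2 and 3, and 11 with the title number as a block. Wnt6, a secreted Wnt ligand, stood at 238, 223, 268 and 266 CPM at PND1 and 145, 168, 183 and 177 CPM at PND4 (-0.57 ± 0.084, edgeR adjusted p = 2.67e-04). Bmp2 (-0.72 ± 0.15, edgeR adjusted p = 0.00282), the G-protein gene Gng13 (-0.95 ± 0.20, edgeR adjusted p = 0.00454) and the homeobox gene Irx3 (-0.34 ± 0.087, edgeR adjusted p = 0.0104) fell too. Foxl2, the factor that keeps granulosa identity, was at -0.30 ± 0.09 (edgeR adjusted p = 0.0228), a call lost without any of 5 single libraries. Gata4, at -0.26 ± 0.095 (edgeR adjusted p = 0.0560), and Lgr5, at -0.23 ± 0.086 (edgeR adjusted p = 0.0601), did not pass the test, though both did with the title number as a block (-0.38 ± 0.049, edgeR adjusted p = 3.34e-05 and -0.33 ± 0.055, edgeR adjusted p = 2.74e-04).

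The gene of the study, Nr5a1, did not pass the test between the ages in control ovaries. It stood at 115, 128, 148 and 152 CPM at PND1 and 132, 143, 149 and 147 CPM at PND4, groups that overlap, and its log2 fold change was 0.074 ± 0.086 (edgeR adjusted p = 0.547). Amhr2, the receptor gene whose regulatory region drives cre in the knockout, stood at 278–347 CPM and then 264–279.7 CPM (-0.21 ± 0.072, edgeR adjusted p = 0.0402), and its call was lost without any 1 of 7 of the 8 libraries. Among the genes of steroid hormone synthesis 2 of 16 tested rose (4 without PND4 replicate 2) and 3 fell (5 with the title number as a block). These shares of 12.5% and 18.75% lay near the 16.4% and 15.3% over all genes tested. Hsd17b1, which makes estradiol from estrone in granulosa cells, rose from 1.25, 1.62, 1.93 and 1.08 CPM to 14.7, 9.79, 16.1 and 7.21 CPM (3.00 ± 0.28, edgeR adjusted p = 7.85e-06), and Hsd3b1 by 0.80 ± 0.087 (edgeR adjusted p = 1.90e-05). Cyp11a1, which makes the first steroid from cholesterol, fell from 4.83–6.51 CPM to 1.99–3.26 CPM (-1.13 ± 0.20, edgeR adjusted p = 9.25e-04), and Lhcgr, the receptor for luteinizing hormone, from 4.91–14.1 CPM to 1.16–4.03 CPM (-1.89 ± 0.36, edgeR adjusted p = 0.00289). Star, which moves cholesterol into mitochondria, was at -0.20 ± 0.11 (edgeR adjusted p = 0.190) and passed with the title number as a block (-0.35 ± 0.10, edgeR adjusted p = 0.00934). In a fit that took its spread from all 24 libraries, the calls for Amh, Inha, Dhh, Hsd3b1, Cyp11a1, Amhr2, Foxl2, Ptch1, Gtsf1, Gata1, Nlrp5 and Dnd1 were lost, while Gata4, Col1a1 and Fos passed.

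Of the steroid hormone receptors 4 of 7 rose and 1 fell. Esr1, the estrogen receptor of stroma and theca, stood at 112, 138, 131 and 139 CPM at PND1 and 217, 238, 197 and 228 CPM at PND4 (0.76 ± 0.081, edgeR adjusted p = 1.72e-05). The mineralocorticoid receptor gene Nr3c2 fell by -0.86 ± 0.16 (edgeR adjusted p = 0.00177). Cholesterol synthesis gave 2 higher and 4 lower of 23 tested. These were 8.70% and 17.4%, against 16.4% and 15.3% over all genes tested. Only 1 was higher without any 1 of PND1 replicates 2, 3 and 4 and PND4 replicates 3 and 5. At the contacts between oocyte and granulosa cells 4 of 16 rose and 0 fell (3 fell without PND1 replicate 1 or with the title number as a block), led by Myo10, a motor of the thin cell extensions that cross the zona (0.75 ± 0.074, edgeR adjusted p = 8.23e-06), and Gja1, the gap junction protein of granulosa cells (0.53 ± 0.087, edgeR adjusted p = 5.90e-04).

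**Figure D3:**
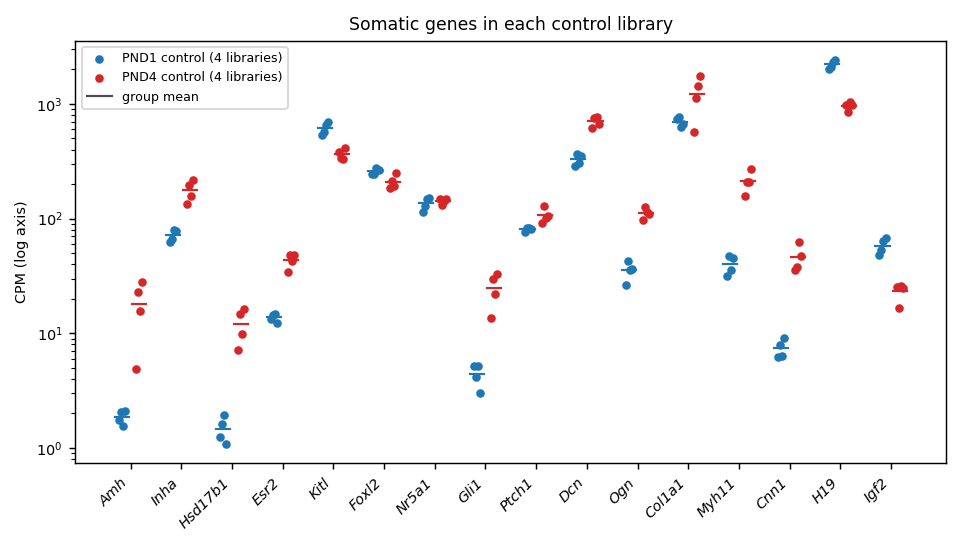
Points are the CPM (log axis) of 16 somatic genes in each of the 4 PND1 and 4 PND4 control libraries, and bars are group means. Amh, Inha, Hsd17b1, Esr2, Gli1, Dcn, Ogn, Myh11 and Cnn1 values at PND4 lie above all PND1 values, Kitl, H19 and Igf2 values lie below them, and Nr5a1 and Col1a1 values overlap.

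Most stroma and theca genes rose. Of 15 tested, 10 were higher and 0 lower, with a median of 0.57. Dcn, the collagen-binding proteoglycan decorin, stood at 289, 369, 308 and 354 CPM at PND1 and 755, 768, 672 and 622 CPM at PND4 (1.09 ± 0.093, edgeR adjusted p = 2.41e-06). Ogn, a related proteoglycan, went from 26.3–43.0 CPM to 96.8–126 CPM (1.67 ± 0.13, edgeR adjusted p = 2.10e-06), Lum from 120.1–158 CPM to 225–259.5 CPM (0.86 ± 0.083, edgeR adjusted p = 7.26e-06) and Pdgfra, the growth factor receptor of stromal cells, from 128–137 CPM to 178–257 CPM (0.75 ± 0.10, edgeR adjusted p = 8.64e-05). No PND4 library was under a PND1 library for these 4 genes. Col1a1, the main chain of fibrillar collagen, stood at 735, 766, 631 and 670.4 CPM and then 1133, 1441, 1738 and 574 CPM, and its log2 fold change of 0.80 ± 0.32 did not pass the test (edgeR adjusted p = 0.100). The low PND4 value is that of replicate 5. For Dcn the value of replicate 5, 622 CPM, lay nearer those of the other PND4 libraries and above all at PND1. Without this library Col1a1 passed (1.04 ± 0.13, edgeR adjusted p = 1.22e-04), and 14 genes of the list were called higher.

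The fibrillar matrix followed, with 10 of 20 higher, 0 lower and a median of 0.42, and 15 were higher without PND4 replicate 5. Mfap5, a microfibril protein, rose from 7.66–16.4 CPM to 24.9–45.1 CPM (1.39 ± 0.23, edgeR adjusted p = 0.00155), Bgn by 0.82 ± 0.13 (edgeR adjusted p = 6.91e-04) and Col12a1 by 0.50 ± 0.11 (edgeR adjusted p = 0.00386). In the basement membrane list 7 of 18 rose (11 with the title number as a block) and 1, Agrn, fell, a call lost without any 1 of PND1 replicates 2, 3 and 4 and PND4 replicates 2, 3 and 5. Nid1, which links laminin to type IV collagen, stood at 288, 361, 338 and 282 CPM at PND1 and 635, 518, 562 and 458 CPM at PND4 (0.78 ± 0.11, edgeR adjusted p = 1.69e-04), and Lama2 rose by 0.74 ± 0.089 (edgeR adjusted p = 4.79e-05). The type IV collagen chain Col4a1 was at 0.20 ± 0.09 (edgeR adjusted p = 0.107) and passed with the title number as a block (0.29 ± 0.064, edgeR adjusted p = 0.00346).

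Smooth muscle genes had the highest share of rises among the somatic lists: 10 of 12 rose, 0 fell, with a median of 0.74. Myh11, smooth muscle myosin, stood at 31.9, 46.9, 35.6 and 45 CPM at PND1 and 209, 209, 269 and 158 CPM at PND4 (2.41 ± 0.17, edgeR adjusted p = 7.65e-06). Cnn1, calponin, rose 6.22-fold (2.64 ± 0.20, edgeR adjusted p = 2.36e-06), Acta2, smooth muscle actin, 2.96-fold (1.57 ± 0.17, edgeR adjusted p = 9.66e-05) and Des, desmin, 3.66-fold (1.87 ± 0.21, edgeR adjusted p = 1.08e-04). Values of these genes did not overlap between the ages. The pericyte gene Rgs5 rose by 0.61 ± 0.13 (edgeR adjusted p = 0.00438), and Kcnj8, also known from pericytes, was at 0.22 ± 0.15 (edgeR adjusted p = 0.294). Without PND4 replicate 3, the library with oviduct-type RNA, 9 of the 12 were called higher.

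Hedgehog signalling, in which granulosa cells send the ligand and stroma responds, had its ligand and its targets higher. Dhh, desert hedgehog, stood at 0.749, 1.03, 1.64 and 1.5 CPM at PND1 and 9.95, 7.57, 8.31 and 5.10 CPM at PND4 (2.64 ± 0.27, edgeR adjusted p = 1.09e-05). The targets Gli1, at 5.16, 4.19, 5.2 and 3.00 CPM and then 29.8, 22.2, 32.8 and 13.6 CPM (2.48 ± 0.28, edgeR adjusted p = 1.07e-04), Hhip (3.31 ± 0.48, edgeR adjusted p = 2.16e-04) and Ptch1, the receptor (0.39 ± 0.091, edgeR adjusted p = 0.00549), rose, the last with its call lost in the fit of all 24 libraries. For Dhh and Gli1 the PND4 values were above all PND1 values. The signal transducer Smo, at 0.066 ± 0.08 (edgeR adjusted p = 0.562), and the inhibitor Sufu, at 0.053 ± 0.10 (edgeR adjusted p = 0.700), did not pass the test. Of 12 tested of 14 listed, 6 rose and 1, the co-receptor gene Boc, fell (-0.30 ± 0.084, edgeR adjusted p = 0.0174), a call lost without PND4 replicate 2.

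Notch signalling, which works by contact between oocyte and granulosa cells, had ligand genes that moved in both directions. Jag1 stood at 37.4, 32.8, 27.7 and 29.3 CPM at PND1 and 67.5, 63.3, 66.7 and 59.5 CPM at PND4 (1.02 ± 0.10, edgeR adjusted p = 5.88e-06), while Jag2 stood at 228, 178, 175 and 171 CPM and then 120.4, 112, 116 and 138 CPM (-0.63 ± 0.10, edgeR adjusted p = 3.51e-04). Neither pair of groups overlapped. The ligand gene Dll1 fell as well (-0.75). The targets Hey2 (1.44 ± 0.15, edgeR adjusted p = 1.40e-05), Heyl (0.87 ± 0.094, edgeR adjusted p = 2.03e-05) and Hey1 (0.92 ± 0.11, edgeR adjusted p = 5.21e-05) rose, and the receptors Notch1 (0.21 ± 0.10, edgeR adjusted p = 0.110) and Notch2 (-0.13 ± 0.064, edgeR adjusted p = 0.138) did not pass the test, though both did with the title number as a block (0.22 ± 0.083, edgeR adjusted p = 0.0492 and -0.18 ± 0.055, edgeR adjusted p = 0.0176). The list had 6 higher and 2 lower of 23 tested, 12 and 4 with the title number as a block, and 4 lower without PND1 replicate 1.

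The TGF-beta family had 15 higher and 9 lower of 40 tested. Beside Gdf9, Bmp15, Amh and the inhibin subunits, the ligands Tgfb2 (0.80 ± 0.087, edgeR adjusted p = 2.01e-05) and Bmp4 (1.26 ± 0.18, edgeR adjusted p = 1.69e-04) and the receptor Bmpr1b (0.70 ± 0.089, edgeR adjusted p = 7.28e-05) rose. The BMP target genes Id1 (-0.66 ± 0.14, edgeR adjusted p = 0.00328) and Id3 (-0.60 ± 0.079, edgeR adjusted p = 1.06e-04) fell, while their relative Id4 rose by 0.77. In the Wnt beta-catenin list 4 of 22 rose and 7 fell, and 2 rose without any 1 of PND1 replicates 1, 2 and 4 and PND4 replicates 3 and 4. The feedback genes Axin2, at 126–142 CPM and then 89.7–117 CPM (-0.45 ± 0.082, edgeR adjusted p = 0.00116), and Sp5 (-0.77 ± 0.13, edgeR adjusted p = 7.09e-04) were among those that fell. The inhibitor gene Dkk2 rose from 1.34–3.42 CPM to 3.17–7.86 CPM (1.33 ± 0.32, edgeR adjusted p = 0.00734).

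The PI3K and FOXO pathway, which decides between rest and growth of the primordial oocyte, had 3 higher (5 with the title number as a block) and 5 lower of 24 tested. These were 12.5% and 20.8%, near the 16.4% and 15.3% over all genes tested. Foxo3, the factor that holds oocytes at rest, fell from 336, 311, 287 and 284 CPM to 227, 196, 233 and 241 CPM (-0.44 ± 0.079, edgeR adjusted p = 0.00104), and so did Mtor (-0.25 ± 0.06, edgeR adjusted p = 0.00662) and its partner Rptor (-0.32 ± 0.061, edgeR adjusted p = 0.00159). Pik3r1, a regulatory subunit of PI3K, rose by 0.48 ± 0.08 (edgeR adjusted p = 6.46e-04). In the IGF system 4 of 15 rose and 3 fell: Igf1 rose from 109–141 CPM to 176–208 CPM (0.58 ± 0.086, edgeR adjusted p = 2.65e-04) and Igf2 fell from 48.5, 53.4, 63.6 and 67.4 CPM to 16.7, 26.0, 24.8 and 25.2 CPM (-1.33 ± 0.14, edgeR adjusted p = 2.99e-05). The neurotrophin and JAK-STAT list had 7 higher (4 without PND4 replicate 2) and 2 lower of 17 tested, the latter being 0 or 1 whichever single library was left out, led by the feedback gene Socs2 (0.62 ± 0.07, edgeR adjusted p = 2.72e-05) and the receptor gene Ntrk3 (1.34 ± 0.18, edgeR adjusted p = 1.31e-04). In retinoic acid signalling 2 of 15 rose (4 without PND1 replicate 1, 5 with the title number as a block) and 1 fell. These were 13.3% and 6.67%, under the shares over all genes tested. Stra6, the retinol transporter, rose by 1.08 ± 0.16 (edgeR adjusted p = 3.51e-04).

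Among imprinted growth genes more were lower than higher. Of 20 tested, 10 were lower and 2 higher, with a median of -0.17, and the higher count was 0 or 1 without any 1 of the 4 PND1 libraries and PND4 replicates 2, 3 and 4. H19, a noncoding RNA of the Igf2 locus, stood at 2036, 2111, 2305 and 2419 CPM at PND1 and 848, 1048, 979 and 972 CPM at PND4 (-1.21 ± 0.083, edgeR adjusted p = 3.91e-07). Peg10 (-1.49 ± 0.11, edgeR adjusted p = 1.75e-06), Mest (-0.66 ± 0.059, edgeR adjusted p = 3.37e-06) and Peg3 (-0.56 ± 0.063, edgeR adjusted p = 2.74e-05) fell with it, as did Cdkn1c, a cyclin-dependent kinase inhibitor (-0.63 ± 0.077, edgeR adjusted p = 5.44e-05). Meg3 (-0.10 ± 0.13, edgeR adjusted p = 0.616) and Dlk1 (0.094 ± 0.22, edgeR adjusted p = 0.772), which share another imprinted locus, did not pass the test.

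Few survival genes were called, and division genes rose at about the share of all genes tested. Over all genes 16.4% were higher and 15.3% lower. In the apoptosis and DNA damage list 2 of 27 rose and 2 fell, shares of 7.41% in each direction, with 1 lower without any 1 of PND1 replicates 1 and 2 and PND4 replicates 2, 3 and 4. Bcl2l10, a survival factor of the oocyte, was the one large change, from 2.67–4.08 CPM to 21.3–31.3 CPM (2.96 ± 0.17, edgeR adjusted p = 8.28e-08). Trp63, the guardian of oocyte DNA, stood at 77.8–93.6 CPM and then 72.9–109 CPM (0.034 ± 0.12, edgeR adjusted p = 0.852). Of 29 proliferation genes 5 rose (17.2%), or 8 with the library set as a block, and 2 fell (6.90%). The number that fell was 1 without PND1 replicate 2 or 3 or PND4 replicate 3 or 4 and 4 without PND1 replicate 4. Ccnb1 rose by 0.72 ± 0.12 (edgeR adjusted p = 4.82e-04), and Mki67, the marker of cycling cells, was at -0.056 ± 0.21 (edgeR adjusted p = 0.866). Autophagy and lysosome genes had 3 higher (5 without PND1 replicate 1, 6 with the title number as a block) and 1 lower of 18, with Ctsl, a lysosomal protease, at 0.75 ± 0.061 (edgeR adjusted p = 1.54e-06).

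Of 18 interferon-response genes tested 9 were lower and 1 higher, with a median of -0.47. The lower count was 5 without PND4 replicate 2 and 3 without PND4 replicate 5 and PND1 replicates 2 and 3 together. Ifit3 stood at 7.58, 2.91, 3.42 and 5.51 CPM at PND1 and 1.57, 1.48, 1.80 and 1.94 CPM at PND4 (-1.51 ± 0.29, edgeR adjusted p = 0.00187), Usp18 fell by -1.43 ± 0.37 on the log2 scale (edgeR adjusted p = 0.0114) and Stat2, a signal transducer of interferon, by -0.55 ± 0.093 (edgeR adjusted p = 7.01e-04). The higher one was Bst2, tetherin (0.68 ± 0.13, edgeR adjusted p = 0.00133), joined by 1 more without PND1 replicate 1 or PND4 replicate 2. Immediate early genes had 4 of 14 higher, 10 without PND4 replicate 5 and 8 with the title number as a block. Egr1 stood at 35.4, 45.3, 52.1 and 35.5 CPM and then 123, 124, 139 and 60.4 CPM (1.41 ± 0.27, edgeR adjusted p = 0.00638), and Fos at 2.75, 4.02, 5.58 and 2.92 CPM and then 13.0, 67.2, 10.9 and 2.99 CPM (2.63 ± 1.01, edgeR adjusted p = 0.0988). PND4 replicate 3 was the highest and replicate 5 the lowest PND4 library for Fos, which passed without replicate 5 (2.98 ± 0.83, edgeR adjusted p = 0.0465) and in DESeq2 (2.61 ± 0.88, DESeq2 adjusted p = 0.0124). Of 16 clock genes 2 rose (1 without PND4 replicate 4) and 3 fell. These were 12.5% and 18.75%, near the shares over all genes tested. Bhlhe41, a repressor of the clock, went from 72.8–96.0 CPM to 26.4–36.9 CPM (-1.43 ± 0.12, edgeR adjusted p = 2.18e-06).

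Other cell types of the ovary were read through their markers. Macrophage and leukocyte genes rose for 9 of 19 tested and fell for 0, with a median of 0.48. Csf1r, the growth factor receptor of macrophages, stood at 12.2, 15.1, 13.2 and 14.8 CPM at PND1 and 25.4, 21.1, 24.0 and 17.2 CPM at PND4 (0.66 ± 0.13, edgeR adjusted p = 0.00180), and the complement gene C1qb rose by 0.77 ± 0.14 (edgeR adjusted p = 0.00123). Ptprc, which marks all leukocytes, was at 0.14 ± 0.40 (edgeR adjusted p = 0.820). Of 6 mast cell genes tested 4 were lower: the chymase Cma1 stood at 45.8, 54.3, 74.8 and 69.0 CPM and then 21.1, 30.6, 33.7 and 25.2 CPM (-1.14 ± 0.17, edgeR adjusted p = 6.56e-04). Without any 1 of PND1 replicates 3 and 4 and PND4 replicates 2 and 5, the list had 2 calls.

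Endothelial genes had 2 of 16 higher and 0 lower, with Pecam1 at 45.8–57.7 CPM and then 40.0–54.8 CPM (-0.0054 ± 0.11, edgeR adjusted p = 0.977) and Eng, a TGF-beta co-receptor, at 0.98 ± 0.19 (edgeR adjusted p = 0.00368). The count was 5 without PND4 replicate 5, 4 with the library set as a block and 10 with the title number as a block. Surface epithelium markers were near their PND1 level: Upk3b was at 0.13 ± 0.11 (edgeR adjusted p = 0.405) and Krt19 at 0.006 ± 0.11 (edgeR adjusted p = 0.974), and of 12 markers 3 were called higher and 1 lower, the higher count being 0 or 1 without any 1 of PND1 replicates 1, 2 and 3 and PND4 replicates 3 and 5, and the lower count 0 without PND1 replicate 2, 3 or 4 or PND4 replicate 2 or 4, 2 without PND1 replicate 1 and 4 with the title number as a block. For red blood cell genes the median log2 fold change was -2.13 over 13 tested, yet only Gata1 was called, and 4 were called without PND1 replicate 4. Gata1 had a mean of 21.6 CPM at PND1 (SD 5.03) and 9.50 CPM at PND4 (SD 1.14), without the wide spread of Slc4a1. Slc4a1 stood at 15.9, 283, 116 and 1.67 CPM and then 15.7, 5.27, 24.5 and 7.92 CPM (-2.97 ± 1.39, edgeR adjusted p = 0.159), so PND1 replicates 2 and 3 set its mean. In DESeq2 it passed (-2.96 ± 1.23, DESeq2 adjusted p = 0.0499). Markers of adrenal gland, adipocytes, skeletal muscle and nerve mostly failed the filter, with 3 of 8, 1 of 8, 4 of 8 and 6 of 10 tested, and Lep was at 0 in all 8 libraries. Of the Sertoli cell list, 3 of 9 tested rose, Ptgds, Dhh and Gdnf, while Sox9 was at 5.81–7.95 CPM and then 5.47–7.05 CPM (-0.10 ± 0.16, edgeR adjusted p = 0.653).

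**Figure D4:**
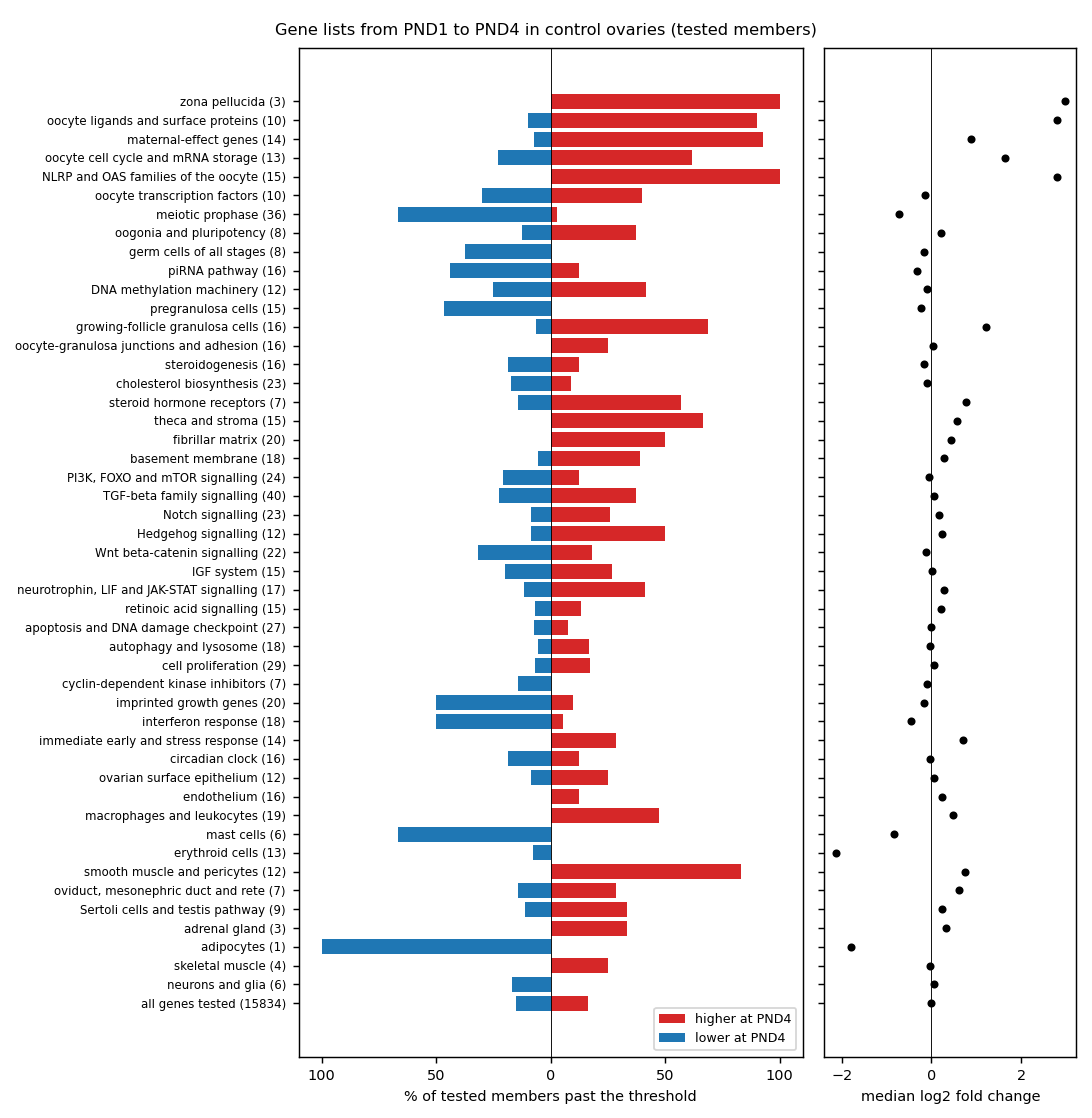
Bars give, for each list, the percentage of its tested members (number in brackets) called higher or lower at PND4, and points give the median log2 fold change. Over all 15834 genes 16.4% were higher and 15.3% lower, while zona and oocyte NLRP and OAS genes were all higher and 24 of 36 meiotic genes were lower.

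The same 3 days were compared in SF-1 cKO ovaries, which asks whether the change with age depends on the genotype. The targeted gene Nr5a1 lay at 62.7–74.8 CPM at PND1 and 62.0–82.2 CPM at PND4 in cKO ovaries, against 110.1–152 and 133–149 CPM in controls, so every cKO library was under every control library. In a fit of the 16 libraries of both genotypes, 3204 genes rose in controls and 2584 in cKO, and 2043 rose in both, 63.8% of the former and 79.1% of the latter. Over all 16625 genes the rises were 19.3% in controls and 15.5% in cKO, and the falls 14.4% and 14.6%. For falls the counts were 2389, 2426 and 1694, which are 70.9% and 69.8%. The test of the difference itself called 33 of 16625 genes (0.198%), 27 with a higher log2 fold change in controls (0.162%) and 6 with a lower one (0.0361%). On simulated counts this test called 35.8% of 1.5-fold and 62.7% of 2-fold differences, so genes that did not pass may still differ. The count of called genes moved with single libraries. Without PND4 control replicate 5 it was 133, of which 120 and 13 had these directions. It was 14 without PND4 cKO replicate 2 or 4, 15 without PND1 cKO replicate 3, 17 without PND1 cKO replicate 1, 19 without PND1 or PND4 control replicate 2 and 22 without PND1 control replicate 3 or 4. All 3 zona genes rose in cKO ovaries too (median 2.93 against 3.00 in controls), as did 13 of the 17 granulosa genes tested in this fit, and 23 of 36 meiotic genes fell. The difference did not pass the test for any member of these 3 lists. Medians were further apart for some other lists. The widest gap was that of red blood cell genes, at -2.11 in controls and 1.89 in cKO, genes that were high in single control libraries. Adipocyte genes, with 2 tested, were at 0.61 and -0.57. Interferon response was at -0.45 in controls and 0.041 in cKO, and retinoic acid signalling at 0.24 and -0.15. Theca and stroma was at 0.59 and 0.20, and fibrillar matrix at 0.45 and 0.20. In cKO 2 interferon-response genes rose and 0 fell, and 3 of 15 theca and stroma genes rose. Across all lists, these included, the difference passed for 3 members: Irx3, Igfbp6 and Gabarapl1.

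Grhl3, a transcription factor of epithelia, had the smallest adjusted p of the difference. It lay at 6.41–9.09 CPM at PND1 and 17.9–21.8 CPM at PND4 in controls and at 7.01–8.44 and 5.59–6.67 CPM in cKO ovaries, so the PND4 genotypes did not overlap. Its log2 fold change with age was 1.42 ± 0.12 in controls and -0.38 ± 0.13 in cKO, a difference of 1.80 ± 0.18 (edgeR adjusted p = 3.30e-05). Pitpnm3, a lipid transfer protein, rose in controls and fell in cKO, with a difference of 1.71 ± 0.23 (edgeR adjusted p = 0.00118). Tnni1, a troponin subunit, was at 0.15 ± 0.14 in controls and -1.27 ± 0.16 in cKO (difference 1.42 ± 0.21, edgeR adjusted p = 0.00447). In the other direction Thbs2, a matrix protein that restrains vessel growth, fell in controls from 186–254 CPM to 104–138 CPM and lay at 187–206 and 174–203 CPM in cKO (difference -0.92 ± 0.13, edgeR adjusted p = 0.00281). Bace2 (-0.87 ± 0.14, edgeR adjusted p = 0.00710) and Trim66 (-1.62 ± 0.29, edgeR adjusted p = 0.0200) differed the same way, and these 6 genes kept the call in all 20 alternative settings. Oprk1, Fam163a, Dio2 and Cela1 passed the test but lost it in 12, 13, 17 and 15 of those settings. The cKO animals also carry cre, so SF-1 loss and the transgene cannot be told apart.

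**Figure D5:**
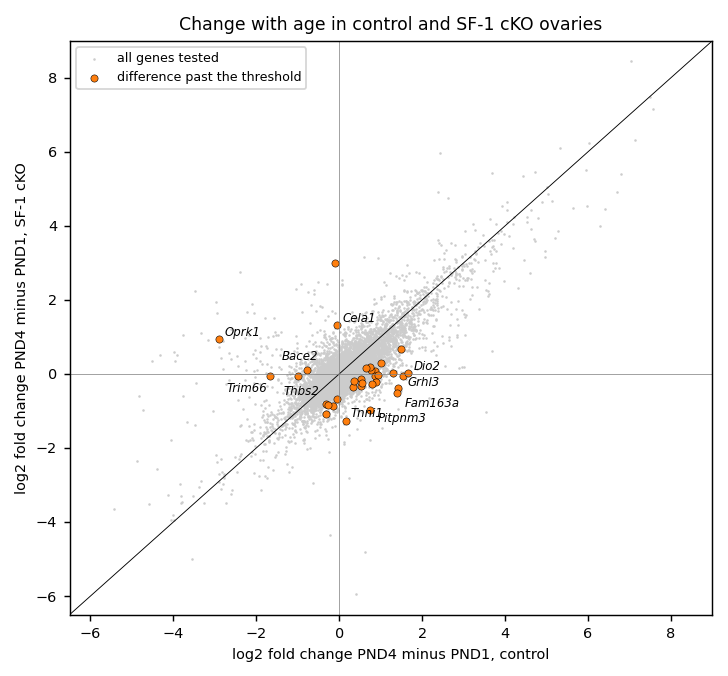
Each point is a gene, at its log2 fold change from PND1 to PND4 in controls (horizontal) and in SF-1 cKO ovaries (vertical), with the line of equal change. Most genes lie near the line, and orange points are the 33 genes whose change with age differed between genotypes.

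The 3 days before, from ED17.5 to PND1, were set beside this period. Both steps share the 4 PND1 control libraries, so an error in those libraries moves the 2 steps in opposite directions. The step from PND1 to PND4 differed from the earlier one for 5843 of 16598 genes (35.2%), 2551 with a higher change in the later step (15.4%) and 3292 with a lower one (19.8%). Zona genes rose in both steps, with medians of 3.79 and 2.99. Of all genes tested in this 12-library fit, 28.5% were higher and 24.9% lower in the earlier step, and 17.1% and 14.8% in the later one. Of 36 meiotic genes 22 were lower in the earlier step and 23 in the later one. Several somatic lists had more members lower in the earlier step and more members higher in the later one: theca and stroma had 11 of 15 lower in the earlier step and 12 higher in the later one, and the test of the difference called 13 higher and 1 lower. Of 19 macrophage genes 11 were lower and then 9 higher, of 20 fibrillar matrix genes 10 and then 9, and of 12 Hedgehog genes 10 and then 6. Of 16 endothelial genes 12 were lower in the earlier step, while 2 were higher and 0 lower in the later one. Other somatic lists did not turn: of 16 granulosa genes of growing follicles 7 were higher and 4 lower and then 12 higher and 1 lower, and of 6 mast cell genes 3 were lower and then 4. Of 17 piRNA genes 9 were higher in the earlier step and 7 lower in the later one. Of 20 imprinted genes 17 were lower and then 9.

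Hhip, a Hedgehog target, lay at 0.927–2.17 CPM at ED17.5, 0.0836–0.337 CPM at PND1 and 1.43–3.64 CPM at PND4, with log2 fold changes of -2.90 ± 0.50 and 3.33 ± 0.49 and a difference of 6.23 ± 0.91 (edgeR adjusted p = 1.01e-04). Sp9, a zinc finger transcription factor, lay at 0.805–2.10, 2.70–4.43 and 0–0.30 CPM at the 3 ages (difference -5.42 ± 0.64, edgeR adjusted p = 1.51e-05), and Rbakdn, at 0.403–1.24, 7.85–12.4 and 2.25–3.23 CPM (-5.50 ± 0.41, edgeR adjusted p = 2.85e-07). All 3 thus turned back after PND1. Iqcf5, Ms4a1 and Tmco5b rose before PND1 and did not pass the test after it: Tmco5b lay at 0–0.152, 1.94–5.51 and 3.38–4.85 CPM. Aadac, Serpina1a, Uox and Gjb1 were near 0 at PND1, where their fitted changes depend on the prior count. Aadac, an enzyme known from liver, lay at 1.18–5.16, 0–0.0748 and 0.0874–0.763 CPM, and Uox lost its call without PND4 replicate 3.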

How the data were processed

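The authors deposited 1 table of read counts per Ensembl gene, whole numbers without normalization, for 24 libraries of poly(A) RNA from mouse ovary made with a directional kit. Trimmomatic, STAR, HTSeq and DESeq2 and the build GRCm38 are named in the submitters' processing notes, with no versions; the strand setting of the counting is not given in the sources used here. Groups and replicate numbers came from the titles, and columns were matched by library number and title. Coordinates came from GENCODE M21, and promoters from RefSeq (GRCm38.p6).

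From the counts, low genes were removed by filterByExpr with its minimum count at 10 and its minimum total at 15, leaving 15834 genes in the 8 libraries. Libraries were scaled by TMM and fitted with edgeR 4.0.16 (robust quasi-likelihood, R 4.3.3), with Benjamini-Hochberg adjustment over all genes tested. SE was taken as the absolute log2 fold change divided by the root of F. The differences with cKO (16 libraries) and with the earlier step (12 libraries) were contrasts of group means. On simulated counts for the comparison of the 8 libraries (15834 genes), 61.2%, 77.6% and 93.9% of genes changed 1.5-fold, 2-fold and 4-fold were called. In each simulation only 67, 67 and 66 genes were changed by these folds, while 5007 genes were called between PND1 and PND4. The adjustment depends on how many genes change, so these shares need not hold for the data. For the difference with cKO these shares were 35.8%, 62.7% and 89.4%, and for the difference with the earlier step 31.3%, 53.7% and 86.4%.

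The pairing of libraries was checked: deviations from group means of libraries with the same title number correlated at 0.100, 0.137 and 0.134 (replicates 2, 3 and 4), and those of PND1 replicate 1 and PND4 replicate 5, from the same set of 6 library numbers, at 0.217. Library numbers and title numbers come from the labels, which do not say what they mark.

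Named genes are Nr5a1, Amhr2, the 15 largest called rises and falls with a mean of at least 1 CPM and no overlap, up to 4 members with the smallest p and members with a described role of 36 pathway and 12 marker lists, and 5 genes in each direction per difference. Some named genes are not reported here. The members and lists were chosen with earlier results of these data known. Alternatives were other scalings, no filter, DESeq2 1.42.0, fits with more libraries, replicate blocks, sets of libraries and leaving out single libraries. Intervals and floors cover counting error only.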

Additional observations from a re-analysis of the deposited data

Results flagged for a closer look

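Single libraries that lay far from the other 3 of their group, by the ratio of the gap to the range, were found in 16 of 160 groups checked; chance gives about 1 in 20. Of these, 5 were summed levels of gene lists at PND1: in replicate 1 the sum of the oocyte transcription factors was 868.9 CPM (others 618.9 to 636.0), of germ cells of all stages 2032 CPM, of Hedgehog signalling 702.6 CPM (others 776.5 to 785.7) and of the IGF system 2947 CPM (others 3371 to 3424), and in replicate 2 that of retinoic acid signalling was 1551 CPM (others 1606 to 1614). At PND4, replicate 3 had lower sums of the maternal-effect genes, 5210 CPM (others 5790 to 5897), and of oocyte cell cycle and mRNA storage, 814.3 CPM (others 954.7 to 971.2). Replicate 2 had 1124 CPM of erythroid genes (others 227.6 to 333.4) and replicate 4 had 16.89 CPM of adipocyte genes (others 2.077 to 2.901).

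Among the genes with the largest changes, PND4 replicate 5 kept more of 4 that fell: Nxf2 at 3.958 CPM, Nol4 at 0.8796 CPM, Syce3 at 1.935 CPM and Prss50 at 1.231 CPM. At PND1, Obox5 had its single count in replicate 1 (0.08326 CPM), and replicate 2 had more Zar1l (0.2565 CPM) and Nlrp9b (0.5985 CPM) than the others.

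The change with age differed between control and cKO ovaries in edgeR's test of the difference for the following named genes, as log2 in controls minus cKO: Grhl3 1.803, Pitpnm3 1.709, Tnni1 1.423, Fam163a 1.913, Dio2 1.652, Igfbp6 0.7123, Irx3 0.7659, Gabarapl1 0.6473, Thbs2 -0.9207, Bace2 -0.8677, Trim66 -1.619, Oprk1 -3.833 and Cela1 -1.367.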

How the results depend on the processing

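The count of genes called between PND1 and PND4 stayed within 1.5 times of 5007 under other scaling, DESeq2, fits with 12 or 24 libraries and the replicate blocks, which gave 6204 by title number and 5507 by library set. Leaving out single libraries gave 2111 to 2867 higher, 1648 to 2621 lower and 3789 to 5488 in all, of which 1002 to 1176 changed at least 2-fold (734 to 847 higher, 266 to 329 lower). Without a filter, 1678 genes changed at least 2-fold, 1209 higher and 469 lower. With only the libraries numbered 13 to 24, 2 against 2, 752 rose, 276 fell and 1028 changed in all, 636 at least 2-fold (128 lower). With only those numbered 1 to 12, also 2 against 2, 2275 rose, 1902 fell and 4177 changed in all. The set numbered 13 to 24 holds PND1 replicate 1 and PND4 replicates 3 and 5, which stood apart. Without PND4 replicate 5 and PND1 replicates 2 and 3, an alternative chosen after seeing the data, 1560 fell. The difference with cKO was called for 58 genes without a filter (41 higher, 17 lower), for 18 in the fit of all 24 libraries (12 higher), and for 10 to 120 higher, 3 to 13 lower and 14 to 133 in all when single libraries were left out. For the difference with the earlier step these counts were 1898 to 2705 higher, 2869 to 3405 lower and 4767 to 6110 in all.

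Of 333 calls of list members and named genes, 136 were kept in all settings, 265 whichever library was left out and 327 under the block by library set; 185 were lost with 2 libraries against 2. Beside the calls given above, no call of a gene discussed above was changed by a block. Without PND1 replicate 1, Gata4, Lgr5 and Notch2 also passed, and without PND4 replicate 5 Lgr5, Col4a1 and Mael. Directions reversed for Stmn2 with libraries 1 to 12 (-0.98, edgeR adjusted p = 0.0369), and, without those 3 libraries, for Lyz2 (1.25, edgeR adjusted p = 0.00569) and Mki67 (0.42, edgeR adjusted p = 0.0147). The cause was not tested. At this depth 1.5-fold changes were recovered less often than 2-fold ones on the simulated counts.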

Other observations

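Homeobox genes of the Hox clusters, which keep the body position of stromal and other somatic cells, were looked at after the values were seen. Of 25 tested, 8 rose between PND1 and PND4 and 0 fell, with a median log2 fold change of 0.42. Over all genes tested 16.4% rose and 15.3% fell. Hoxa9 rose by 1.11 (edgeR adjusted p = 0.0466), Hoxd3 by 1.06 (edgeR adjusted p = 0.0103) and Hoxb2 by 1.01 (edgeR adjusted p = 0.0445) on this scale, while Hoxb9 (-0.08) and Hoxc5 (-0.23) did not pass the test. On chromosome 12, 4 of the 5 tested genes of the Tcl1 family, which growing oocytes express, rose, Tcl1b4 by 2.76 and Tcl1b3 by 2.24, and Tcl1 itself, at 0.43, did not pass. Markers of the oviduct and its ducts gave 2 higher (1 with the title number as a block) and 1 lower of 7 tested. When single libraries were left out, 1 to 3 were higher and 0 or 1 lower, with a median between -0.049 and 0.77. Foxj1 (1.04, edgeR adjusted p = 0.0106) and Cdh16 were the higher ones. Cdh16 lost its call in 11 of 21 settings, among them those without PND1 replicate 1, 2 or 3 and with the title number as a block. Emx2, the lower one, lost its call without 6 of the 8 single libraries. Wnt7a, Pax2 and Pgr were high in PND4 replicate 3.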
